A study of Mus musculus with 4 samples.

Results

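A set of 31 genes of cholesterol synthesis, uptake and trafficking was followed in a mouse microglial cell line, N9, that had been given nimodipine, a dihydropyridine blocker of L-type calcium channels. The members were chosen by name, with earlier results of these data known. Of the 31, 27 had a probe set carrying their symbol alone, out of 22180 genes measured this way. Idi1 shared its probe set with a second symbol, and Acat2, Soat1 and Nr1h2 were not matched, so these 4 members have no values in the comparisons. There were 4 arrays: vehicle 1, vehicle 2, 1 array at 10 µM nimodipine and 1 array at 20 µM nimodipine. All cultures were the same cell line without a genetic change named in the labels, and neither the vehicle solution nor the length of exposure is given there. N9 is a single transformed line, so the arrays speak for that line alone. The series title asks about the effect of dihydropyridines on murine microglial cells. Values are log2 expression as deposited, so a difference of 1 is a doubling, and each dose array was read against the average of vehicle 1 and vehicle 2 (the vehicle mean).

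Cells build cholesterol from acetyl-CoA through mevalonate to farnesyl units, and then through squalene and lanosterol to the sterol itself. The pathway is switched by SREBP-2, a transcription factor that SCAP escorts out of the endoplasmic reticulum when sterol is scarce and that INSIG proteins hold back when it is plentiful. Sterol taken up in lipoproteins leaves the lysosome through NPC1 and NPC2, and surplus sterol acts through oxysterols on LXR receptors. In the brain, microglia and macrophages meet much of their cholesterol as myelin and cell debris.

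The promoters of 3 members are shown because these genes had the largest differences above vehicle or carried the classical element. They are Hmgcs1, Insig1 and Hsd17b7. Hmgcs1 alone of the 26 members with a window held TCACNCCAC, the form of the sterol regulatory element core that was searched. Other forms of the element were not searched, and Fdps, Fdft1, Sqle, Stard4 and Npc1 had no window. Insig1 was furthest above vehicle at 10 µM and Hsd17b7 at 20 µM. Insig1 and Hsd17b7 were picked for printing after their values were seen. Each is the RefSeq window from 250 bases before to 50 bases after the annotated start, 5′ to 3′ on the gene's strand (GRCm38.p6): chr13:119690101-119690400 on the plus strand for Hmgcs1, chr5:28071162-28071461 on the plus strand for Insig1, and chr1:169969156-169969455 on the minus strand for Hsd17b7. Capitals mark the searched motifs on either strand: TCACNCCAC (the sterol element core), CCAAT (the NF-Y box, which reads ATTGG on the other strand) and CACGTG (the E-box).
Hmgcs1: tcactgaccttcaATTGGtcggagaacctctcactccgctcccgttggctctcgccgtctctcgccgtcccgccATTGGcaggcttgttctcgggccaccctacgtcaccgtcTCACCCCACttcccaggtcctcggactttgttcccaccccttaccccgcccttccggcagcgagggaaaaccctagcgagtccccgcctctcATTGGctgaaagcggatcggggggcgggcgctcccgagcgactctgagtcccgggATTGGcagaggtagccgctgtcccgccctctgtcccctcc
Insig1: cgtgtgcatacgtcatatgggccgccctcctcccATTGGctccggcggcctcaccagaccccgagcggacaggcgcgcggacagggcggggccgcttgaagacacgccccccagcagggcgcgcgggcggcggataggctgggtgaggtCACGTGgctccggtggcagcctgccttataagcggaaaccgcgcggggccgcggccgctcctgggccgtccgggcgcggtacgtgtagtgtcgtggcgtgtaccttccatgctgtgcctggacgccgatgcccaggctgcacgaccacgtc
Hsd17b7: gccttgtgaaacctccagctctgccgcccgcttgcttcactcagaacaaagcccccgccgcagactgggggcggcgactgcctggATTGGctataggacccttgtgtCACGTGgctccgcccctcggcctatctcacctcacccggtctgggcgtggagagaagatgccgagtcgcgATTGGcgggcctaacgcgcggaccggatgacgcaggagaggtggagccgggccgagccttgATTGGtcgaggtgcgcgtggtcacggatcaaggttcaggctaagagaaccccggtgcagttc

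Hmgcs1 held TCACCCCAC, a match to the sterol element core, between 137 and 129 bases before its start. It was the 1 of 26 members with a window in the promoter table to hold TCACNCCAC, beside 1.44% of all genes in the table. CCAAT was present for 22 of the 26 (84.6%), beside 41.1% of all genes, and CACGTG for 5 of the 26 (19.2%: Hsd17b7, Insig1, Dhcr7, Sc5d and Scap), beside 8.09%. Motifs were searched on both strands and did not overlap in the printed windows. A match describes letters in these windows and shows no binding.

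The cholesterol genes differed little from vehicle, and the members furthest from it were not the same at the lower and the higher dose. On the 10 µM array the largest differences were spread over sterol sensing, sterol enzymes and sterol handling: Insig1, Sc5d, Scap, Cyp51, Tmem97 and Npc1 were 1.40-fold to 1.61-fold above the vehicle mean, while Pmvk and Mylip were 1.65-fold and 1.50-fold below it. At 20 µM those genes were between 1.02-fold and 1.16-fold from vehicle, and Hsd17b7 (1.45-fold), Hmgcs1 (1.38-fold), Msmo1 (1.26-fold) and Sqle (1.25-fold) stood highest. The vehicle pair was not even in these genes: vehicle 2 was above vehicle 1 for 19 of 27 members (70.4%, beside 49.8% of all genes). The median difference was 0.16. None of these differences passed a test over all genes.

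With both nimodipine arrays set against both vehicle arrays, limma called 0 of 27 members and 0 of 22180 genes (0%) at an adjusted p under 0.05. The smallest adjusted p of a member was 0.792. At an unadjusted p under 0.05 there was 1 member, Hsd17b7, beside 1191 genes in all (5.37%). Hsd17b7 was higher with nimodipine by 0.42 ± 0.16 (limma SE, 2 arrays per group). In a fit of 3 groups, which has 1 residual degree of freedom and assumes that a lone dose array varies like the vehicle pair, limma called 0 members at 10 µM beside 1.59% of all genes. It called 0 members at 20 µM beside 0% of all genes. The smallest adjusted p of a member was 0.116 at 10 µM (Insig1) and 0.762 at 20 µM, and an unadjusted p under 0.05 was found for 8 members at 10 µM (beside 16.9% of all genes) and 1 at 20 µM (beside 6.39%). Values of single genes are therefore given as a description of 1 array beside the vehicle pair. RNA from whole cultures cannot tell fewer cells of a kind from less RNA per cell.

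All 27 measured members had a level above the median of all probe sets on each of the 4 arrays, beside 12044 of all 22180 genes. The shares given for all genes thus include many dimmer genes and were not computed for bright genes alone. Of 14 measured microglia and macrophage markers, 11 were also above that median on every array, while Adgre1, P2ry12 and Tmem119 had means below it. Of 18 measured markers of astrocytes, neurons, oligodendrocytes and fibroblasts, 10 were above it on every array. Their median level was 5.36 in vehicle 1 and 5.38 in vehicle 2, near the median of all probe sets (5.04). The microglia list had median levels of 9.52 and 9.55 on the same arrays. The medians of the marker differences were -0.13 at 10 µM and 0.02 at 20 µM for the microglia list, and 0.03 and 0.05 for the other cells. At 10 µM, 10 of the 14 microglia markers were lower than the vehicle mean and 4 higher (beside 52.4% of all genes higher). Lower by 0.5 or more were 2 of the 14, beside 6.18% of all genes. These were Cd14 (-1.16) and Itgam (-0.77), both myeloid surface proteins, named for their size. The part of these shifts in the values of the cholesterol genes was not tested.

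**Figure D1:**
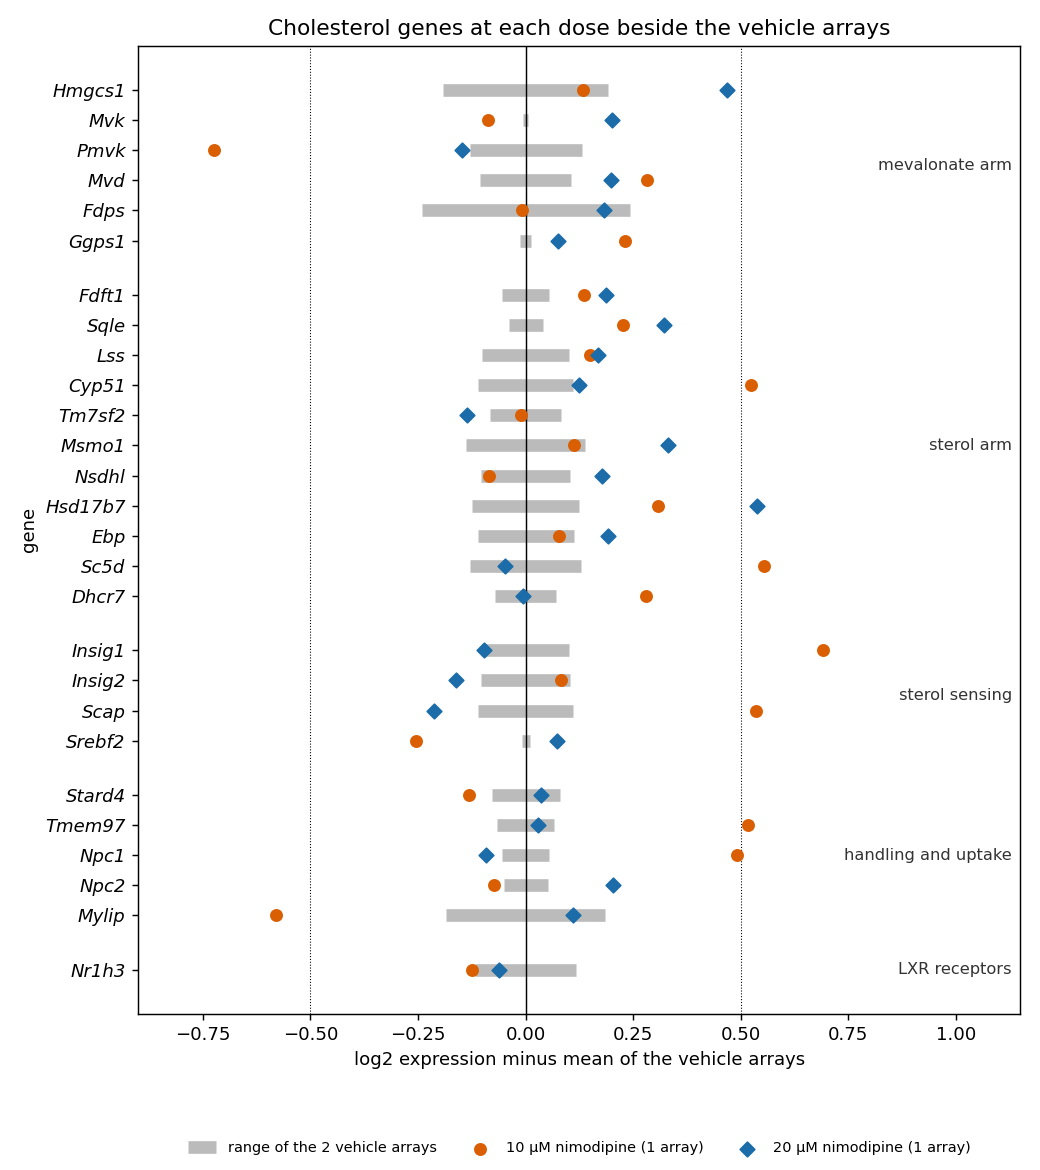
Each row is 1 of the 27 measured cholesterol genes, ordered by role. The horizontal axis gives log2 expression minus the mean of the vehicle arrays, the grey bar spans the 2 vehicle arrays, orange circles are the 10 µM array, blue diamonds the 20 µM array, and dotted lines mark a difference of 0.5 either way. Insig1 lies furthest right at 10 µM (0.69), Pmvk furthest left (-0.72), and Hsd17b7 furthest right at 20 µM (0.54).

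The 27 members had a median difference of 0.13 at 10 µM, with 17 higher and 10 lower than the vehicle mean. The share above vehicle was 63.0%, beside 52.4% of all genes. At 20 µM the median was 0.11, with 18 higher and 9 lower, a share of 66.7% beside 49.3% of all genes. Between the vehicle arrays the median was 0.16 and the share 70.4%, beside 49.8% of all genes. Over all genes the corresponding medians were 0.01, 0.00 and 0.00. These medians and shares of the cholesterol genes at each dose were no larger than those from one vehicle array to the other. The measures are unlike, because a dose array was set against a mean of 2 arrays and vehicle 2 against 1 array. Against vehicle 2 alone the 10 µM median was -0.008, and against vehicle 1 alone it was 0.23. At 20 µM the same medians were 0.08 and 0.11.

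A difference of 0.5 or more above the vehicle mean was found at 10 µM for 5 of 27 members (18.5%), beside 3.92% of all genes. A difference as large below it was found for 2 members (7.41%), beside 6.18%. At 20 µM there was 1 member above (beside 1.45% of all genes) and 0 below (beside 1.29%). From vehicle 1 to vehicle 2 there were 0 members in either direction, beside 2.05% of all genes higher and 1.53% lower. No member differed by 1 or more: 0 of 27 at 10 µM beside 1.57% of all genes, 0 at 20 µM beside 0.0857%, and 0 from vehicle 1 to vehicle 2 beside 0.113%. With array medians set equal, the 10 µM count went from 7 members to 4, as Cyp51 (0.49), Scap (0.50, just under the limit) and Tmem97 (0.48) dropped below 0.5. Hsd17b7, the 1 member past 0.5 at 20 µM, stood 0.66 above vehicle 1 and 0.41 above vehicle 2.

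A second reading asked whether a dose array lay outside the vehicle pair by more than the gap between the 2 vehicle arrays. More genes meet it than the 0.5 limit, since a small difference passes where the vehicle arrays lie close together. Srebf2, for example, passed at 20 µM with a difference of 0.07, where vehicle 2 minus vehicle 1 was -0.02. At 10 µM, 9 members lay clear above the pair in this sense (33.3%, beside 22.9% of all genes). They were Ggps1, Sqle, Cyp51, Sc5d, Dhcr7, Insig1, Scap, Tmem97 and Npc1. Below it lay 4, namely Mvk, Pmvk, Srebf2 and Mylip (14.8%, beside 22.3%). At 20 µM, 7 lay clear above (25.9%, beside 17.8%), namely Mvk, Ggps1, Fdft1, Sqle, Hsd17b7, Srebf2 and Npc2, and 0 lay clear below (beside 18.2%). Sqle and Ggps1 lay clear above at both doses, 2 of 27 beside 8.90% of all genes, and 0 lay clear below at both doses, beside 8.81%. Counting every member with both dose arrays beyond both vehicle arrays, 7 were above (beside 19.2% of all genes) and 1, Pmvk, was below (beside 18.2%). Because 1 vehicle pair served for both doses, these joint counts are not independent.

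**Figure D2:**
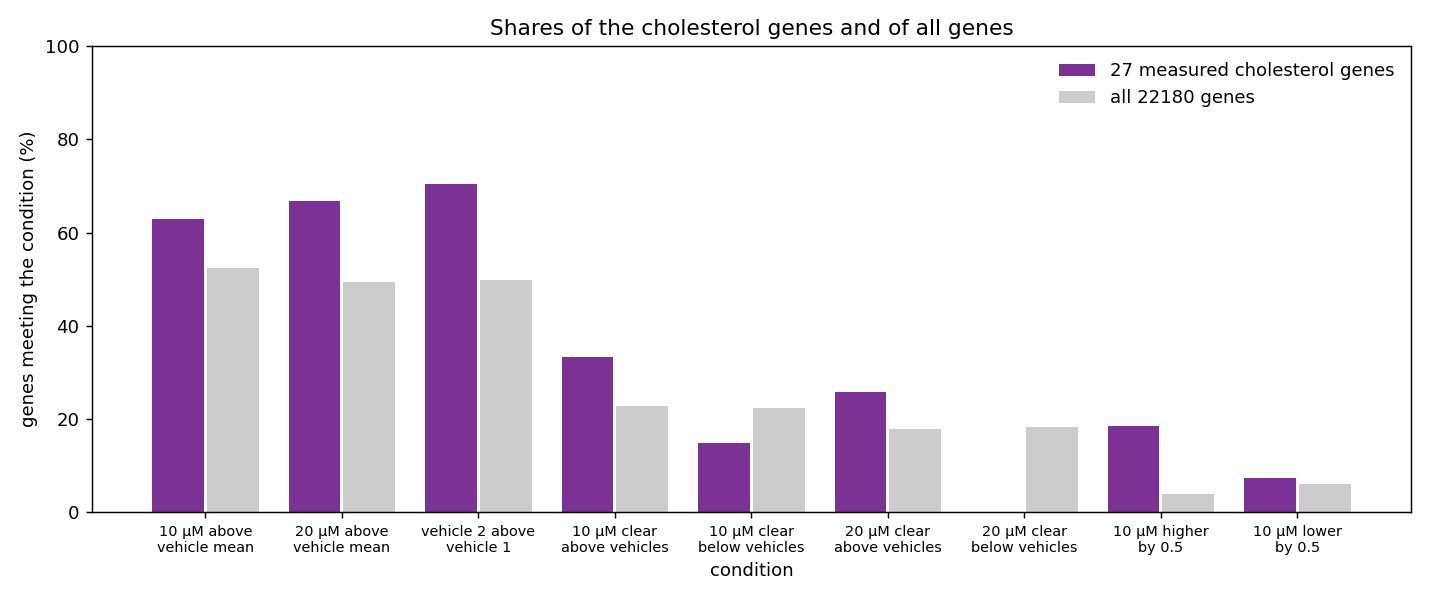
Bars give the percentage of genes that meet each condition on the horizontal axis, for the 27 measured cholesterol genes (purple) and for all 22180 genes (grey). "Clear" means outside the vehicle pair by more than the gap between the vehicle arrays. The tallest purple bar is the difference between the vehicle arrays (70.4%), above the bars of the 10 µM array (63.0%) and the 20 µM array (66.7%).

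In the mevalonate arm, which turns acetyl-CoA into isoprenoid units, the medians of the 6 measured genes were 0.06 at 10 µM and 0.19 at 20 µM. Above the vehicle mean were 3 of 6 and 5 of 6, beside 52.4% and 49.3% of all genes. From vehicle 1 to vehicle 2 the 6 genes had a median difference of 0.24. Hmgcs1, the synthase of HMG-CoA, stood at 9.63 and 10.02 in vehicle, 9.96 at 10 µM and 10.29 at 20 µM. Only the 20 µM array lay above both vehicles, by 0.28 over vehicle 2, which is less than the vehicle gap of 0.38. Pmvk, the kinase that makes mevalonate diphosphate, stood at 8.95 and 9.21 in vehicle, 8.35 at 10 µM and 8.93 at 20 µM. It was the lowest member at 10 µM, with a difference of -0.72 ± 0.17 (SE, limma fit of 3 groups, adjusted p = 0.121), while at 20 µM it lay 0.02 under vehicle 1. Ggps1, which makes the geranylgeranyl group of prenylated proteins, stood at 7.35 and 7.32, then 7.56 and 7.41. Both dose arrays were above a vehicle pair that differed by 0.03. Mvk, the first kinase of the arm, was lower by 0.09 at 10 µM and higher by 0.20 at 20 µM. Mvd, the decarboxylase that follows Pmvk, was higher by 0.28 and 0.20. Fdps, which makes farnesyl diphosphate, differed by -0.01 and 0.18, both inside a vehicle gap of 0.48, the widest of all members.

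In the sterol arm, from squalene to cholesterol, 9 of 11 genes were above the vehicle mean at 10 µM (median 0.15). At 20 µM, 8 of 11 were above it (median 0.18). The shares of all genes above it were 52.4% and 49.3%. Vehicle 2 exceeded vehicle 1 for 10 of the 11 sterol enzymes (beside 49.8% of all genes), by a median of 0.20. Sqle, the squalene epoxidase that is a rate-limiting step after mevalonate, stood at 10.06 and 10.14 in vehicle, 10.32 at 10 µM and 10.42 at 20 µM. Both dose arrays lay above both vehicles by more than the vehicle gap of 0.08, at differences of 0.23 and 0.32. Hsd17b7, a reductase of sterol intermediates, stood at 6.15 and 6.40 in vehicle, 6.58 at 10 µM and 6.81 at 20 µM. Its 20 µM difference of 0.54 ± 0.17 (SE, limma fit of 3 groups) had an adjusted p of 0.762. Cyp51, the demethylase of lanosterol, stood at 8.25 and 8.47, then 8.88 at 10 µM and 8.48 at 20 µM. The 10 µM array was high, and the 20 µM array lay 0.01 above vehicle 2. Sc5d, a desaturase late in the arm, stood at 9.34 and 9.08, then 9.76 and 9.16, with the 10 µM array alone outside the vehicle range.

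The other sterol enzymes lay no further than 0.33 from the vehicle mean. Msmo1, a methyl sterol oxidase, differed by 0.11 at 10 µM and 0.33 at 20 µM. Fdft1, the squalene synthase, was higher by 0.14 and 0.19, and Lss, which closes the rings of lanosterol, by 0.15 and 0.17. For both, each dose array lay above both vehicles. Nsdhl, which acts with Msmo1 and Hsd17b7 in removing the methyl groups, differed by -0.09 and 0.18. Ebp, the sterol isomerase, differed by 0.08 and 0.19. Dhcr7, which carries out the last reduction to cholesterol, was higher by 0.28 at 10 µM and differed by -0.01 at 20 µM. Tm7sf2, a sterol reductase, differed by -0.01 and -0.14.

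The 4 sterol-sensing genes gave the widest difference between the doses, with medians of 0.31 at 10 µM and -0.13 at 20 µM, beside 0.09 between the vehicle arrays. Insig1, a retention protein that is itself a target of SREBP-2, stood at 10.05 and 10.25 in vehicle, 10.84 at 10 µM and 10.05 at 20 µM. The 10 µM array was 0.59 above the higher vehicle array, and the 20 µM array lay 0.0028 above the lower one. The difference at 10 µM was 0.69 ± 0.16 (SE, limma fit of 3 groups, adjusted p = 0.116). Insig2, its relative, stood at 8.44 and 8.64, then 8.62 and 8.38. Its 10 µM array lay inside the vehicle range. Scap, the escort of SREBP-2, stood at 7.69 and 7.47, then 8.12 at 10 µM and 7.37 at 20 µM, high at the lower dose and below both vehicles at the higher one. A second, dimmer probe set of Scap did not show this, with 5.99 and 5.90 in vehicle, 5.86 at 10 µM and 5.92 at 20 µM, and the mean of both probe sets differed by 0.23 at 10 µM. Srebf2, which encodes SREBP-2, stood at 10.27 and 10.26, then 10.01 and 10.34. It was lower by 0.26 at 10 µM and higher by 0.07 at 20 µM.

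Among genes that handle and take up sterol, 2 of 5 were higher at 10 µM (beside 52.4% of all genes) and 4 of 5 at 20 µM (beside 49.3%). The medians of the 5 were -0.07 and 0.04, beside 0.10 between the vehicle arrays. Npc1, the lysosomal membrane protein that exports cholesterol, stood at 9.66 and 9.55 in vehicle, 10.10 at 10 µM and 9.51 at 20 µM. It was higher by 0.49 at 10 µM, just short of 0.5, while its soluble partner Npc2 stood at 11.37 and 11.47, then 11.35 and 11.62. A dim second probe set of Npc1, below the median of all probe sets on every array, differed by 0.10 at 10 µM, and the mean of both differed by 0.30. Tmem97, a sterol-responsive membrane protein that binds NPC1, stood at 9.26 and 9.39, then 9.84 and 9.35, again with the 10 µM array alone outside the vehicle range. Mylip, the ubiquitin ligase that LXR induces to degrade lipoprotein receptors, stood at 7.88 and 7.51, then 7.11 at 10 µM and 7.80 at 20 µM. The 10 µM array was 0.40 under the lower vehicle array, and vehicle 2 minus vehicle 1 was -0.37. Stard4, a carrier of cholesterol between membranes, stood at 7.74 and 7.90, then 7.68 and 7.85. Nr1h3, which encodes LXR alpha, stood at 7.06 and 6.83, then 6.82 and 6.88, no more than 0.01 outside the vehicle range.

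**Figure D3:**
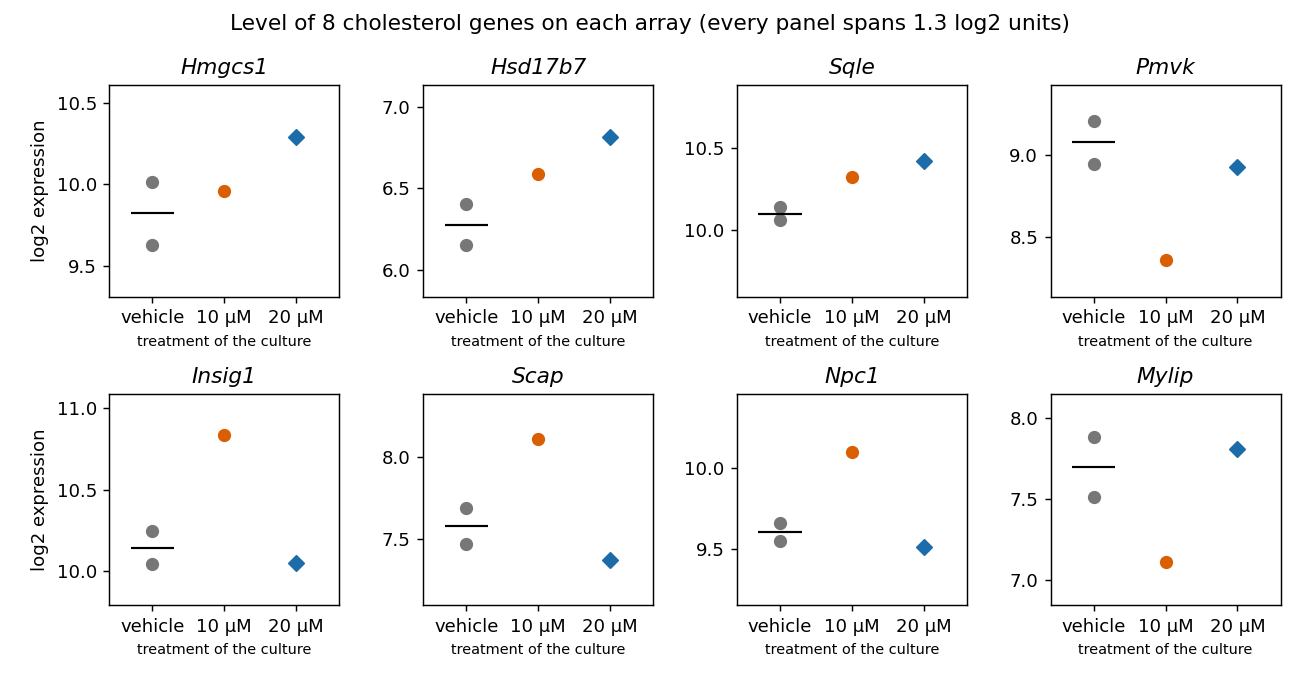
Log2 expression of 8 cholesterol genes on every array, with the 2 vehicle arrays as grey points, their mean as a line, the 10 µM array as an orange circle and the 20 µM array as a blue diamond. Every panel covers the same height. Hmgcs1, Hsd17b7 and Sqle are highest at 20 µM, whereas Insig1, Scap and Npc1 are highest and Pmvk and Mylip lowest at 10 µM.

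Set directly against each other, the dose arrays differed by 0.5 or more for 6 members. Insig1 (-0.79), Scap (-0.75), Sc5d (-0.60) and Npc1 (-0.58) were lower at 20 µM than at 10 µM, 4 of 27 (14.8%) beside 5.14% of all genes. Mylip (0.69) and Pmvk (0.58) were higher at 20 µM, 2 of 27 (7.41%) beside 5.94%. This comparison was added after the values were seen and uses no vehicle array. With probe sets averaged per gene the count was 4 instead of 6, as Scap and Npc1 fell short of 0.5. The second, dimmer probe set of Scap stood at 5.86 at 10 µM and 5.92 at 20 µM. That of Npc1 stood at 4.41 and 4.39. limma called 0 members in the contrast of the doses within the fit of 3 groups, beside 0.316% of all genes, and the smallest adjusted p of a member was 0.162 (Insig1). At an unadjusted p under 0.05 there were 7 members, beside 13.7% of all genes.

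The wider list of 55 other genes of sterol and lipid supply had 44 measured, with medians of -0.04 at 10 µM and 0.01 at 20 µM, where 15 (34.1%, beside 52.4% of all genes) and 22 (50%, beside 49.3%) were above the vehicle mean. Vehicle 2 was above vehicle 1 for 17 of the 44 (38.6%, beside 49.8% of all genes). At 10 µM, 2 of the 44 were higher by 0.5 or more (4.55%, beside 3.92% of all genes) and 1 lower (2.27%, beside 6.18%). At 20 µM, 1 was higher (2.27%, beside 1.45%) and 0 lower (beside 1.29%). Erlin1, an endoplasmic reticulum protein that takes part in degrading sterol-regulated enzymes and in holding SREBPs, stood at 7.98 and 7.86 in vehicle, 9.19 at 10 µM and 7.99 at 20 µM. The 10 µM array was 2.41-fold above the vehicle mean (adjusted p = 0.0280 in the limma fit of 3 groups). Lpcat3, a phospholipid-remodelling enzyme induced by LXR, stood at 9.31 and 9.30, then 10.22 and 9.39, with an adjusted p of 0.0493 at 10 µM in the same limma fit. These were 2 of the 44 under 0.05, beside 1.59% of all genes, and each was named for its size and rests on 1 dose array and the spread of the vehicle pair. Erlin1 and Lpcat3 were no further than 0.08 from the vehicle mean at 20 µM. Lrp1, a receptor of lipoproteins and debris, stood at 10.69 and 10.67, then 9.84 and 10.92, low at 10 µM and above both vehicles at 20 µM (limma adjusted p at 10 µM = 0.0580). Pltp, a phospholipid carrier induced by LXR, was unlike these, with a difference of -0.03 at 10 µM and -0.47 at 20 µM. Acss2, an acetyl-CoA synthetase, differed by -0.46 and 0.23 with a vehicle gap of 0.39, and Gramd1b, a carrier of sterol from the plasma membrane, by 0.46 and 0.19. The gene past 0.5 at 20 µM, Ch25h, a cholesterol 25-hydroxylase, had a mean just under the median of all probe sets and is named after its values were seen. It stood at 4.73 and 4.81, then 5.26 and 5.34, with both dose arrays above both vehicles (limma adjusted p at 20 µM = 0.762). With both doses as 1 group, limma called 0 of the 44 (beside 0% of all genes), and 1 had an unadjusted p under 0.05 (2.27%, beside 5.37%).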

How the data were processed

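Total RNA of N9 cells was extracted with TRIzol and labelled with the WT PLUS kit, per the labels' protocols. The authors deposited log2 expression per probe set, computed by RMA in Affymetrix Expression Console 1.2.1.20, per the submitters' processing notes. RMA sets all arrays to a common distribution, so a shift of most genes would not be seen; array medians ran from 5.02 to 5.06. Precision is limited by the number of arrays, and no detection calls were used.

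Of 41345 probe sets, 23521 carried 1 gene symbol, 1814 several and 16010 none in the platform annotation. For a gene with several, the probe set with the highest mean was taken, which gave 22180 genes. Members and lists were chosen with earlier results of these data known. Values on all arrays are given for members past 0.5 at either dose or outside the vehicle pair by more than its gap at both doses, and for 10 measured regulators and key genes listed by name; of the other sterol genes with a mean at or above the median probe set, the 6 with the largest difference are named.

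limma 3.58.1 (R 4.3.3; lmFit, eBayes) compared nimodipine with vehicle, with Benjamini-Hochberg adjustment over 22180 genes, and was checked on simulated data. Whether the vehicle arrays stem from separate cultures is not in the labels, so a p-value reflects the spread of these arrays alone, possibly a technical one. They also mention a respective vehicle without assigning the vehicle arrays to doses. Alternatives were other probe set rules, normalizations and eBayes options, a filter on dim genes, single vehicle arrays and left-out arrays. RefSeq promoter windows were found for 26 of 31 members.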

Additional observations from a re-analysis of the deposited data

How the results depend on the processing

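The comparison of nimodipine with vehicle called 0 genes under every alternative run except leaving out arrays, where the count ranged from 0 to 353; the 353 came without the 20 µM array and held 0 members. The count of members past 0.5 at 10 µM was 7. It was 4 with array medians set equal, 8 with cyclic loess and 6 with probe sets averaged per gene. It was 5 without vehicle 1 and 5 without vehicle 2, but the genes changed. Without vehicle 1 they were Sc5d, Insig1, Scap, Npc1 and Pmvk. Without vehicle 2 they were Cyp51, Insig1, Tmem97, Pmvk and Mylip, so only Insig1 and Pmvk passed both ways. At 20 µM the count was 1 and ranged from 0 (without vehicle 1) to 2 (without vehicle 2, adding Hmgcs1). The limma fit of 3 groups called 0 members for 10 µM, for 20 µM and for the doses against each other. The median at 10 µM ranged from -0.008 (without vehicle 1) to 0.233 (without vehicle 2). With other scaling (equal medians or cyclic loess), 7 of 64 differences of the 16 named members moved by more than the SD of the vehicle pair, all of them in Ggps1 and Srebf2, whose vehicle gaps are small. Averaging probe sets can alter only Npc1 and Scap and moved 3 of their differences. Sign changes of differences under 0.5 were not counted. The counts of members clear of the vehicle pair were not recomputed for single vehicle arrays, which give no gap. With 1 array a dose, no result here has a replicate at that dose.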

Other observations

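Idi1, the isomerase between Mvd and Fdps, was measured by a probe set that also carries the symbol Gm13502, so its value cannot be given to Idi1 alone. That probe set stood at 8.12 and 8.46 in vehicle, 8.32 at 10 µM and 8.61 at 20 µM. Like Hmgcs1, Msmo1, Nsdhl and Ebp, it lay inside the vehicle range at 10 µM and above both vehicle arrays at 20 µM, with a vehicle gap of 0.34.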
